A study of Mus musculus with 55 samples.

Results

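Triple tailbuds of mouse embryos at E8.0 were compared with WT tailbuds of the same stage, gene by gene. The comparison takes every library the embryo table names Triple and every one it names WT, 3 and 3, or 6 of the 55 samples of the series, and all 14602 genes of the table. The tissue was a tailbud dissected under the microscope, with no treatment, and each library was made from 10 ng of total RNA by CEL-seq, which tags and counts the 3′ ends of transcripts. The labels call the mutant groups Triple and Cdx1-4 and do not spell out the alleles behind either name, the strain, the number of somites, or whether a library is 1 embryo or a pool. The series is about the Cdx genes and T in the progenitors of the body axis, and 3 Cdx1-4 libraries from the same table are given beside the Triple values where they help. Nothing says that the libraries of a group came from separate embryos, so the p-values below measure only the spread between these libraries, which may be technical.

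The tailbud holds axial progenitors, cells that keep dividing at the rear of the embryo and leave behind the neural tube and the paraxial mesoderm from which somites form. Cdx1, Cdx2 and Cdx4 are homeodomain transcription factors of these cells and are known to activate central and posterior Hox genes, which give each level of the trunk its identity. Wnt and Fgf signals keep the progenitors in place, while retinoic acid made in the somites ahead of them promotes differentiation.

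Triple libraries held 389601 to 596019 counts and WT libraries 395632 to 854852, with 10902 to 12035 genes detected in a library of either group. Libraries of a group differed from each other by more than sampling noise, and none was a copy of another. The first principal component took 26.5% of the variance and placed the Triple libraries between 10.8 and 22.7, the WT libraries between -15 and -9.01 and the Cdx1-4 libraries between -6.07 and -4.67. Triple blue-2 lay nearest to the other groups on it. Libraries are named below by the colour and number in their column names, in the order green-1, blue-1 and blue-2, and the meaning of the colours is not given. CPM are counts scaled to a common library size. In the deepest library of both groups 3 counts are worth 3.51 CPM and in the shallowest 7.70 CPM, and fewer reads than that are not read as a level. The Triple against WT tests were repeated under 14 alternatives, which left out 1 of the 6 Triple and WT libraries or changed 1 other choice, and some genes were too low for a value in all of them. A call that ends when 1 of these 6 libraries is left out is given with its highest adjusted p over those omissions. The other comparisons were not repeated.

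All 3 caudal genes were lower in Triple tailbuds, and Cdx4 was not detected. Cdx4 had 33, 16 and 19 counts in the WT libraries and 0 in each Triple library, which makes it at least 19.2-fold lower against a floor of 3 counts over the group. Cdx1 stood at 176, 153 and 217 CPM in WT and 54.4, 112 and 60.7 CPM in Triple, which differ by -1.27 ± 0.22 on the log2 scale (value ± SE, as below, with edgeR's adjusted p = 0.000127). Cdx2 stood at 269, 174 and 195 CPM in WT and 87.1, 117 and 97.1 CPM in Triple (-1.12 ± 0.19, adjusted p = 0.000147). No library of one group reached the range of the other for any of the 3 genes. Among the blue libraries alone Cdx2 did not pass (adjusted p = 0.121). A 3′ tag can lie outside a deleted part of a gene, so these levels neither prove nor refute an allele.

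EdgeR's quasi-likelihood test called 174 of the 6003 genes that passed the filter on low counts at a Benjamini-Hochberg adjusted p below 0.05, which is 2.90% of them. Of these 97 were higher in Triple (1.62%) and 77 lower (1.28%). At least a 2-fold difference was fitted for 53 of the genes that rose and 44 of those that fell, and at least a 4-fold difference for 11 and 16. The libraries of both groups did not overlap for 96 of the genes that rose and all 77 that fell, while over all tested genes 8.50% lay wholly higher and 7.95% wholly lower in Triple. The green pair, which is 1 library of each group, differed in the called direction for all 174 genes, and the blue libraries for all 170 of them that could be tested there. The calls were made from these same libraries, so this shared direction is no separate support. The blue libraries alone gave 74 calls. In whole tissue, fewer cells of a type and less RNA per cell cannot be told apart.

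**Figure D1:**
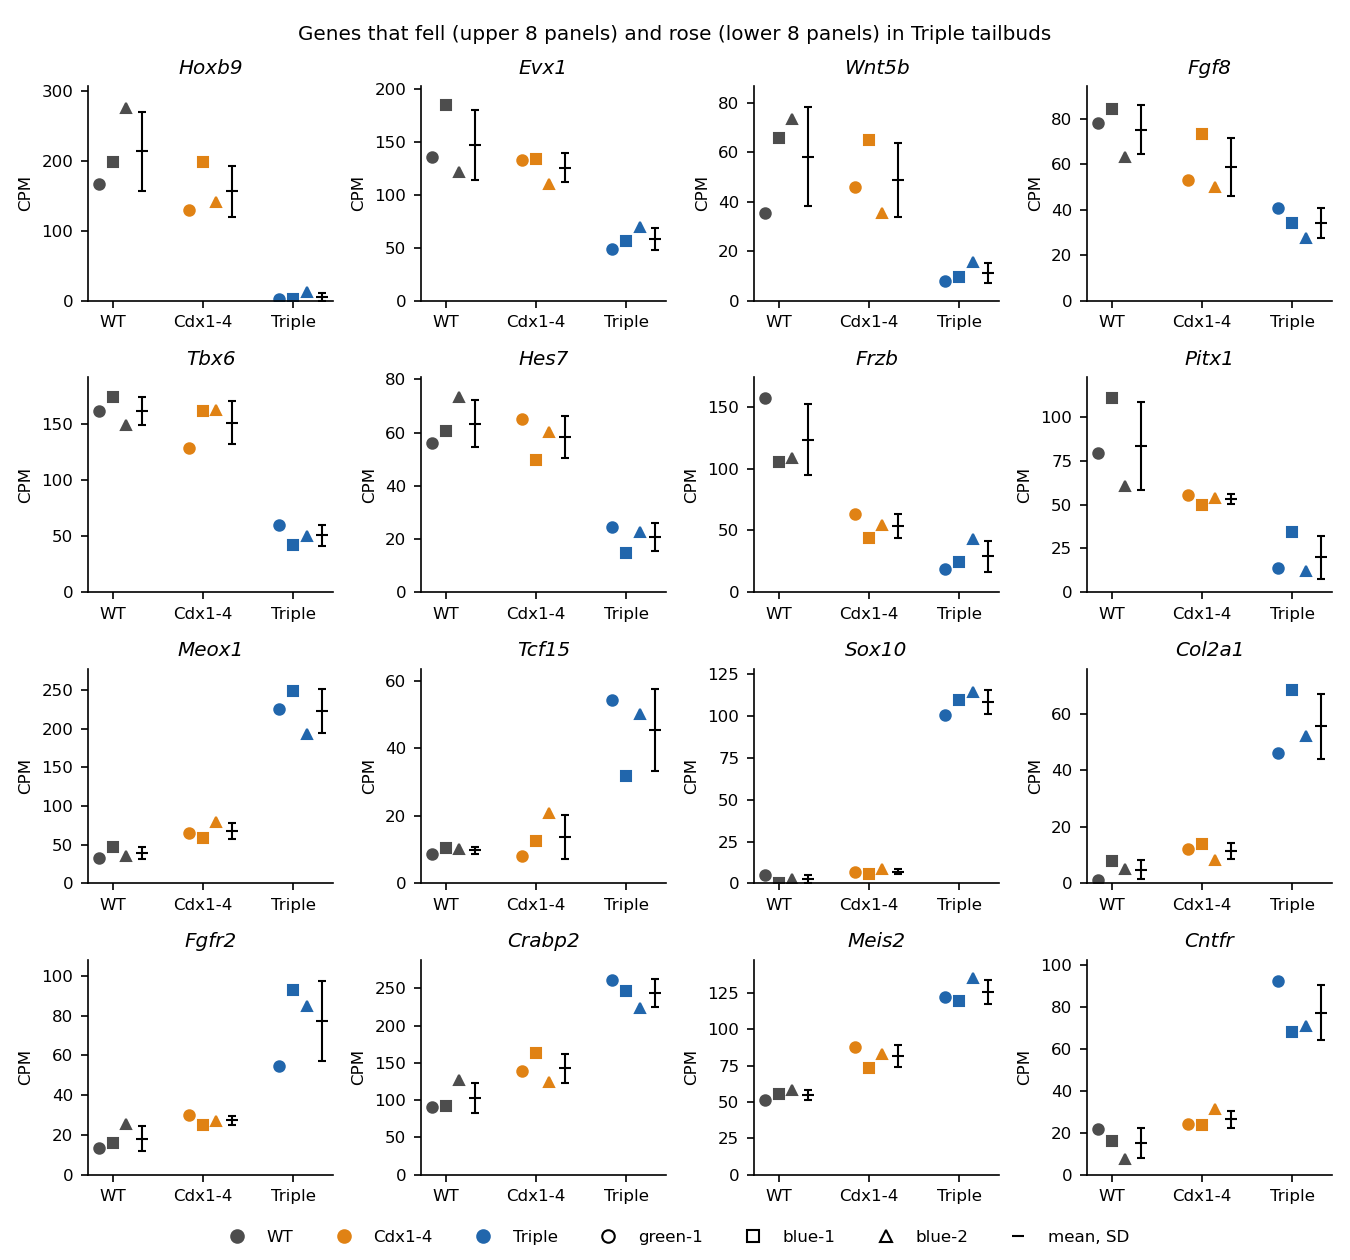
CPM (vertical axes, from 0) of 16 called genes in each of the 3 WT, 3 Cdx1-4 and 3 Triple libraries; symbols mark the library, and the black bar beside each group is its mean and SD. The upper 8 genes were lower and the lower 8 higher in every Triple library than in every WT library.

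Most of the Hox genes of central identity that could be tested fell in Triple tailbuds. Of the 14 genes of paralog groups 5 to 9 in the table, 8 passed the filter, 6 fell and none rose, with a median log2 difference of -2.62 against -0.002 over all tested genes. Their summed level, over all 14, was 604 to 909 CPM in the WT libraries and 68.4 to 156 CPM in the Triple libraries. The 2 tested members that did not pass were Hoxb5, at -0.22, and Hoxc8, at -3.41 (adjusted p = 0.068).

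Hoxb9, which patterns the thoracic trunk, had 136, 75 and 109 counts in WT and 1, 1 and 7 in Triple, or 166, 198 and 275 CPM against 2.72, 2.44 and 12.1 CPM. The gene lies at chr11:96271330-96276595 (GRCm38). Its difference of -4.92 ± 0.36 was the largest fall among called genes after that of Cdx4 (adjusted p = 3.65e-12), and the Cdx1-4 libraries were at 129, 198 and 141 CPM. Its neighbour Hoxb8 went from 126, 166 and 232 CPM to 16.3, 9.77 and 24.3 CPM (-3.24 ± 0.28, adjusted p = 7.48e-12). Hoxb7 had 20, 8 and 9 counts in WT and 0, 3 and 4 in Triple (-2.12 ± 0.55, adjusted p = 0.0168), and its call ended without Triple green-1 or WT green-1 (up to adjusted p = 0.133) and with DESeq2 (adjusted p = 0.0997). No HoxB gene of a lower number was called. Hoxb6 had 6 counts over the libraries of each group. Hoxb5 stood at 45.2, 47.5 and 35.4 CPM in WT and 49, 31.7 and 32.9 CPM in Triple, and Hoxb4, Hoxb3, Hoxb2 and Hoxb1 differed by -0.15, -0.43, -0.02 and 0.11, none of which passed.

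Central genes of the other 3 clusters were low in Triple as well. Hoxd9 had 34, 25 and 23 counts in WT and 1, 2 and 9 in Triple (-2.54 ± 0.41, adjusted p = 2.75e-05). Hoxa5 had 53, 19 and 28 and 1, 0 and 12 (-2.69 ± 0.49, adjusted p = 0.0014). These genes pattern the trunk and, for Hoxa5, also the lung and the neck to trunk transition of the skeleton. Hoxc5 had 28, 9 and 23 and 3, 3 and 9 (-1.76 ± 0.41, adjusted p = 0.00537), and did not pass without Triple blue-1 or WT blue-2 (up to 0.0646). Hoxc9 had 8, 6 and 13 counts in WT and 0 in every Triple library, at least 7.64-fold lower, and Hoxc6 had 11 counts over the WT libraries and 0 over the Triple libraries, at least 3.11-fold lower. Hoxa9 went from 18 counts over the group to 2, a ratio of 7.64 with an exact 95% interval of 1.83 to 67.9. These 3 genes were too low for the filter, and their bounds and interval cover counting error only. Hox genes of groups 10 to 13 had a summed level of 7.58 to 9.77 CPM in WT and 0 to 1.73 CPM in Triple, too few reads for a test of any member.

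The summed level of groups 5 to 9 in the Triple libraries was 89.8, 68.4 and 156 CPM, highest in blue-2, which is also the deepest of the 3. For some genes nearly all reads left in the group were there. Hoxc8 had 53, 37 and 35 counts in WT and 0, 0 and 10 in Triple, so that all 10 of the group's reads were in blue-2. Hoxb9 had 7 of its 9 reads there and Hoxa5 12 of its 13. Hoxb5, with 18, 13 and 19 counts in Triple, and Hoxb8, with 6, 4 and 14, were spread over the 3 libraries. Without Triple blue-2, 7 members of groups 5 to 9 were called lower in place of 6, and Hoxc8 was among those called (adjusted p = 5.96e-05). The difference of Hoxb9 was then -6.21. Blue-2 was looked at because it held the most of these reads, so larger falls without it follow from that choice. Triple green-1 and blue-1 held 1 count each of Hoxb9 and 0 of Hoxc8, fewer than are read as a level.

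Anterior Hox genes differed in both directions. Of 12 genes of groups 1 to 4 in the table, 10 were tested, 1 rose and 1 fell, with a median of -0.59. Differences were negative for 8 of the 10 and positive for 2. Hoxd4, a gene with its anterior limit in the hindbrain, fell from 36.6, 76.5 and 96 CPM in WT to 8.17, 2.44 and 13.9 CPM in Triple (-2.81 ± 0.55, adjusted p = 0.00545). Without Triple green-1 it did not pass (adjusted p = 0.0556). Hoxd1 and Hoxc4 stood at -1.27 and -1.64 with adjusted p of 0.0801 and 0.0508, just outside the threshold.

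**Figure D2:**
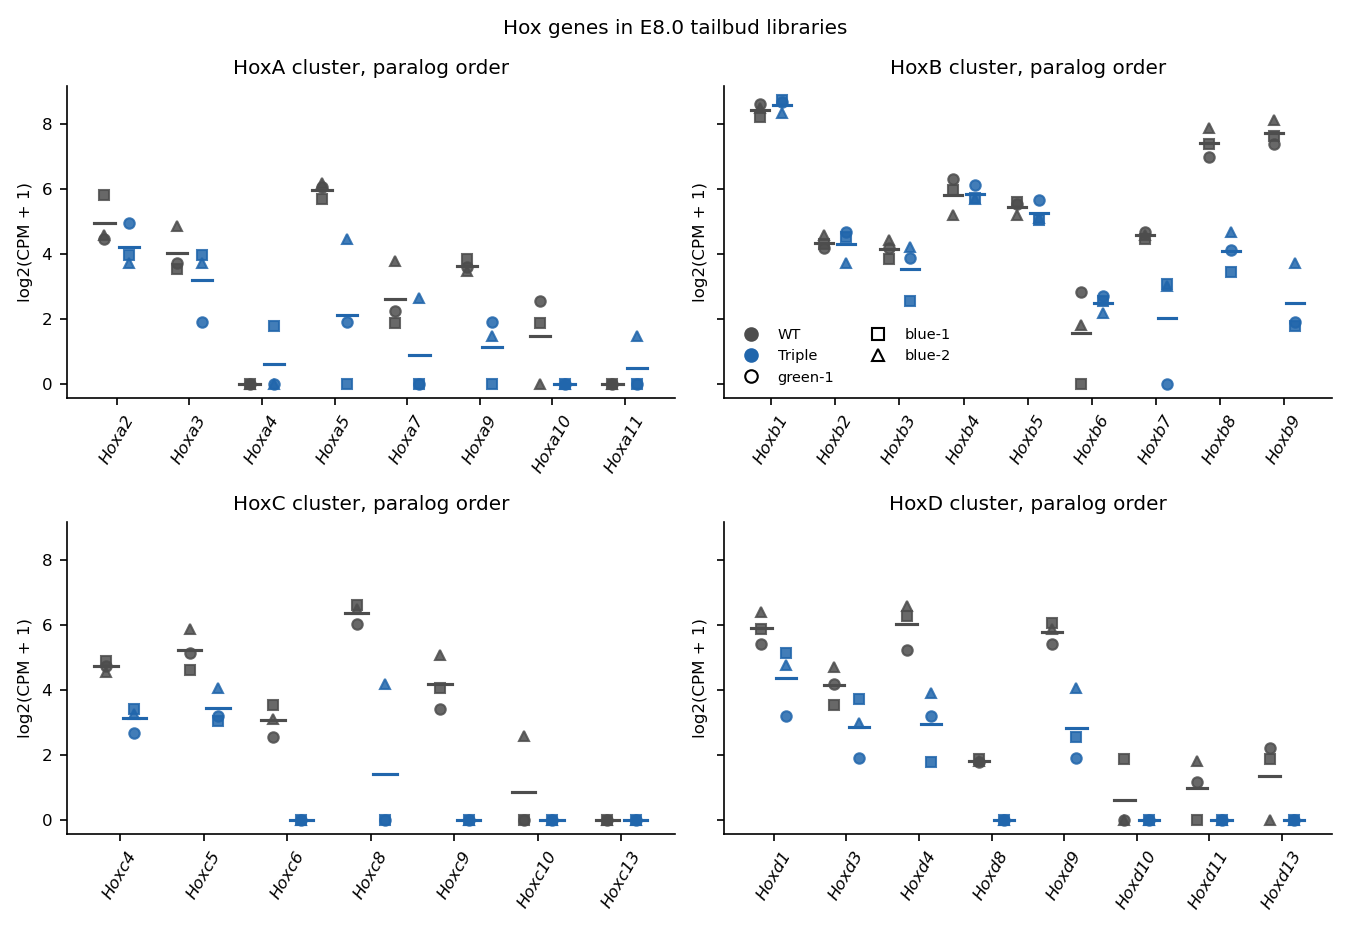
Hox genes of each cluster in order of paralog number, as log2(CPM + 1) in each of 3 WT (grey) and 3 Triple (blue) libraries, with a bar at each group's mean. Hoxb7, Hoxb8 and Hoxb9 lie apart while Hoxb1 to Hoxb5 overlap.

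Noncoding transcripts of the HoxA cluster were low in the same libraries. 2700086A05Rik, listed by RefSeq as Hoxaas3 (chr6:52201124-52213597) and overlapping Hoxa3, Hoxa5 and Hoxa6, had 220, 113 and 157 counts in WT and 1, 1 and 34 in Triple (-3.59 ± 0.60, adjusted p = 0.0282). The call ended without Triple green-1, WT green-1, WT blue-1 or WT blue-2 (up to 0.0974), and without Triple blue-2, which holds 34 of the 36 Triple reads, the difference was -6.82. Mira, beside Hoxa7, had 35, 17 and 22 and 1, 0 and 7 counts (-2.95 ± 0.46, adjusted p = 2.19e-05). At the far end of the cluster Evx1, a homeobox factor expressed in the late streak, stood at 136, 185 and 121 CPM in WT and 49, 56.2 and 69.4 CPM in Triple. Its difference was -1.29 ± 0.21 (adjusted p = 3.53e-05). The overlapping noncoding gene 5730457N03Rik differed by -1.49 ± 0.31 (adjusted p = 0.00156). Whether the counting used strand is not given in the sources used here, so reads of such overlapping pairs cannot be told apart. Meis2, a partner protein of Hox factors on DNA, rose from 51.3, 55.4 and 58.1 CPM to 122, 119.6 and 135 CPM (1.22 ± 0.20, adjusted p = 4.62e-05). It was the 1 of 5 tested genes of the Meis, Pknox and Pbx families to pass, and all 5 had a positive difference.

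Promoter windows of 4 of the genes that fell are shown because they encode homeobox or T-box factors and hold a caudal-type motif in the window. Each runs from 250 bases before to 50 bases after a RefSeq gene start in GRCm38, 5′ to 3′ on the gene's strand, and capitals mark TTTATTG or TTTATGG on either strand.
Hoxd4 (chr2:74721728-74722027, + strand): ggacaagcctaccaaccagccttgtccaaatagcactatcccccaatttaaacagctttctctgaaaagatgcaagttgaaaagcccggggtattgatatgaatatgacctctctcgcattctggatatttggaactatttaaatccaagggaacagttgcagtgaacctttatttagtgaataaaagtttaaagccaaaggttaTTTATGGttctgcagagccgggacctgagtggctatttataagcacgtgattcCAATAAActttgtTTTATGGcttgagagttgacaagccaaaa
Hoxb8 (chr11:96281655-96281954, + strand): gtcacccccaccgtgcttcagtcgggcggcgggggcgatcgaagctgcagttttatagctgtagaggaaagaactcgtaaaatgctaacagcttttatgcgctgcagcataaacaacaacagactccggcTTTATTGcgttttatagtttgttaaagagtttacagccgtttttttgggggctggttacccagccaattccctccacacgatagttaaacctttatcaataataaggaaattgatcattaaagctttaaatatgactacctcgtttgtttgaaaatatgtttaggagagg
Evx1 (chr6:52313248-52313547, + strand): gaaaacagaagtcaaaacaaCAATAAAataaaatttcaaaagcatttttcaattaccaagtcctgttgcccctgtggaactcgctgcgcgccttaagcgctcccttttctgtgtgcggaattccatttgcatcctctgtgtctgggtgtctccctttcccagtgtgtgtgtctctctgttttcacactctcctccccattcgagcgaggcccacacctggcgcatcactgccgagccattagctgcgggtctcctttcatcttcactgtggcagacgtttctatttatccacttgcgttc
T (chr17:8434173-8434472, + strand): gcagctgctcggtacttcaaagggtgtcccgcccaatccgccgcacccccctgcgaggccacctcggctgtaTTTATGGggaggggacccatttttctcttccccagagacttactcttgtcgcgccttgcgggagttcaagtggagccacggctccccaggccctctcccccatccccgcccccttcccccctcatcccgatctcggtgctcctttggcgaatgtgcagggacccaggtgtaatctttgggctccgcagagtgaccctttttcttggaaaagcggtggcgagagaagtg
Hoxd4 has 3 matches, which start 45 bases before and 8 and 21 bases after the gene start. The match starts 120 bases before it in Hoxb8, 230 before it in Evx1 and 178 before it in T. For Hoxb8 the start used lies inside the span that RefSeq lists for the gene, chr11:96279401-96285325, and so does the whole window. Of the 4857 tested genes with a window, 247, or 5.09%, hold a match. A window was found for 51 of the 77 genes that fell and 63 of the 97 that rose, too few of either set, so a comparison of motif shares is void. A match is a run of letters and does not show that a factor binds there.

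Several genes of the primitive streak and axial progenitors fell. Of 12 tested members of this list 5 fell and none rose, with a median of -0.99, and 11 of the 12 differences were negative. Over all tested genes 1.28% fell, and 3026 of 6003 differences were negative. The summed level of the 21 members in the table was 1261 to 1318 CPM in WT and 640 to 704 CPM in Triple, with no overlap, and the Cdx1-4 libraries held 1188 to 1308 CPM. The members called were T, Evx1, Fgf8, Wnt5b and Grsf1. Grsf1 encodes an RNA-binding protein and fell from 357, 274 and 341 CPM to 112, 125 and 128 CPM (-1.42 ± 0.16, adjusted p = 7.18e-09). T, the Brachyury factor needed for mesoderm of the posterior body, stood at 210.0, 208 and 164 CPM in WT and 98, 115 and 111 CPM in Triple (-0.85 ± 0.17, adjusted p = 0.000898), and it did not pass among the blue libraries or after thinning of all libraries to 1 depth. Wnt3a, Wnt5a, Fgf4 and Sp5, also progenitor genes, stood at -0.99, -1.01, -0.98 and -0.68 without passing. The exception in sign was Mesp1, a factor of early mesoderm, at 1.01 (adjusted p = 0.0801).

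Among Wnt genes, 2 of the secreted activators fell, and antagonists and receptors moved in both directions. Wnt5b, a ligand of the streak and of the presomitic mesoderm, had 35.4, 65.9 and 73.3 CPM in WT and 8.17, 9.77 and 15.6 CPM in Triple (-2.17 ± 0.39, adjusted p = 0.000175). Rspo3, an R-spondin that strengthens Wnt signalling at the receptor, had 30.5, 50.1 and 48 CPM and 19.1, 7.33 and 20.8 CPM (-1.30 ± 0.36, adjusted p = 0.0281), a call that ended without Triple green-1, Triple blue-1, WT blue-1 or WT blue-2 (up to 0.231). These were 2 of 6 tested ligands and R-spondins, whose median was -1.003, against 1.28% called lower among all tested genes.

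The receptors Fzd2 and Ptk7 moved in opposite directions. Fzd2, a Frizzled receptor, had 167, 142 and 157 CPM in WT and 294, 347 and 281 CPM in Triple (0.96 ± 0.15, adjusted p = 1.95e-05). Ptk7, a co-receptor of planar cell polarity signalling, had 145, 119 and 177 CPM and 76.2, 105 and 91.9 CPM (-0.68 ± 0.19, adjusted p = 0.0322), a call that ended without Triple green-1, Triple blue-2, WT green-1 or WT blue-2 (up to 0.187). They were 1 gene higher and 1 lower among 7 tested receptors, against 2.90% called over all tested genes.

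Of 5 tested secreted Wnt antagonists, 2 rose and 1 fell, against 1.62% and 1.28% of all tested genes. Sfrp1, a secreted protein that binds Wnt ligands, rose from 106, 116 and 111 CPM to 294, 239 and 217 CPM (1.16 ± 0.17, adjusted p = 4.94e-06). Dkk1, which blocks the Lrp co-receptors, rose from 26.9, 26.4 and 37.9 CPM to 76.2, 63.5 and 46.8 CPM (1.02 ± 0.28, adjusted p = 0.0254). Its call ended without Triple green-1, Triple blue-1, WT green-1 or WT blue-1 (up to 0.234). Frzb, another Wnt-binding protein, fell from 158, 105 and 109 CPM to 19.1, 24.4 and 43.4 CPM (-2.06 ± 0.25, adjusted p = 1.06e-07). Frzb was also low in Cdx1-4, at 63.7, 44.2 and 54.1 CPM, a difference from the same WT libraries of -1.25 ± 0.21 (adjusted p = 0.000423). None of the 10 tested Wnt feedback and Tcf/Lef genes was called by edgeR or DESeq2, with a median of -0.06, and 3 had an unadjusted edgeR p below 0.05. Lef1, a Wnt-responsive factor of the presomitic mesoderm, came nearest, from 214 to 154 CPM in the group means (adjusted p = 0.0899). Ccnd1, a cell cycle gene often read as a Wnt target, was at 467 and 494 CPM.

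Within the Fgf pathway a ligand and several response genes fell while a receptor rose. Fgf8, the main ligand of the posterior growth zone, had 78.2, 84.4 and 63.2 CPM in WT and 40.8, 34.2 and 27.7 CPM in Triple (-1.18 ± 0.26, adjusted p = 0.00305). Etv4, an Ets factor induced by Fgf signalling, had 36.6, 63.3 and 53.1 CPM and 10.9, 17.1 and 20.8 CPM (-1.49 ± 0.34, adjusted p = 0.0039). Dusp4, a phosphatase that switches off the downstream kinase Erk, had 44, 39.6 and 55.6 CPM and 16.3, 19.5 and 12.1 CPM (-1.55 ± 0.35, adjusted p = 0.00333). All 3 genes were lower in each Triple library than in any WT library, as were all 77 genes called lower. Il17rd, a membrane inhibitor of Fgf signalling also called Sef, went from 57.4, 79.1 and 73.3 CPM to 19.1, 19.5 and 39.9 CPM (-1.27 ± 0.28, adjusted p = 0.00305). Of these, Fgf8, Dusp4 and Il17rd did not pass among the blue libraries, and Fgf8 and Dusp4 did not pass without Triple blue-2 (adjusted p = 0.053 and 0.0604).

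Fgfr2, a receptor that was scarce in WT tailbuds, rose from 13.4, 15.8 and 25.3 CPM to 54.4, 92.8 and 85 CPM (2.19 ± 0.30, adjusted p = 1.51e-06). Fgfr1, the receptor of the streak and early mesoderm, stood at 0.46 (adjusted p = 0.409). Of 9 tested receptors, feedback and Ets genes 3 fell and 1 rose, so that the median was 0.04. The shares over all tested genes were 1.28% and 1.62%. Among the 5 that did not pass, Etv5 was at -0.48 and Dusp6 and Spred1, both feedback inhibitors, were at 0.28 and 0.04.

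**Figure D3:**
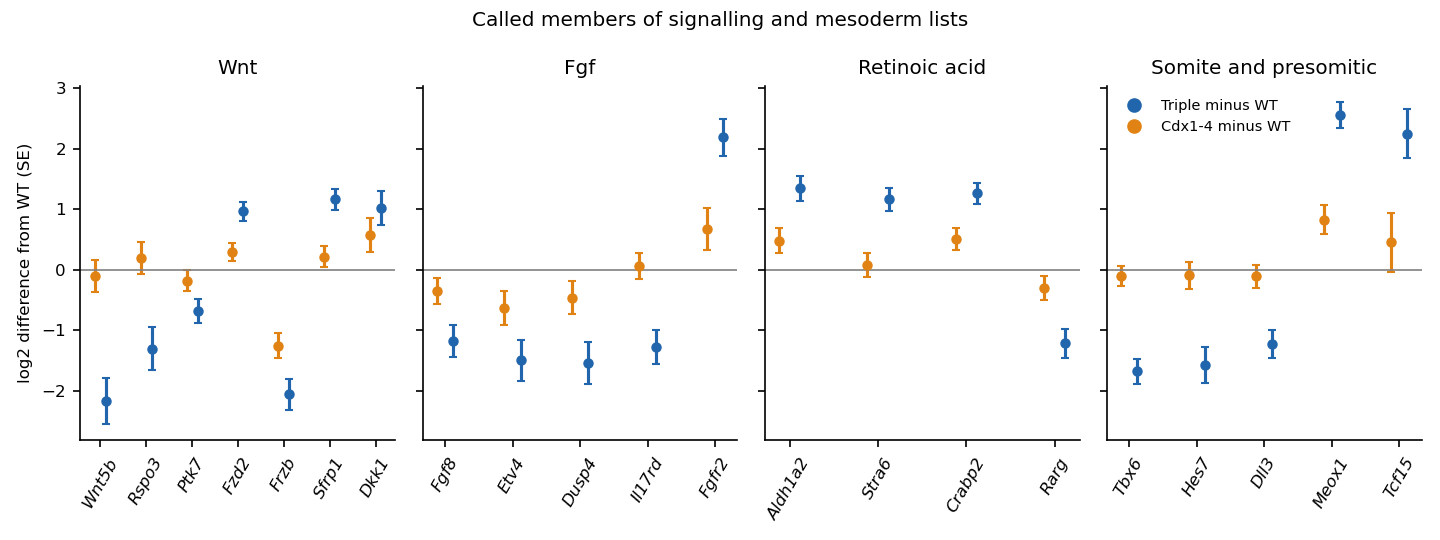
Log2 difference from WT, with its SE, of called members of the Wnt, Fgf, retinoic acid and mesoderm lists for Triple (blue) and Cdx1-4 (orange), 3 libraries a group, both against the same 3 WT libraries. Triple values run from -2.17 for Wnt5b to 2.56 for Meox1, and Frzb is the gene shown that was also called in Cdx1-4.

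Several genes of unsegmented mesoderm fell and several of formed somites rose. Of 12 tested presomitic and segmentation clock genes 4 fell and 2 rose, with a median of -0.35. Over all tested genes 1.28% fell and 1.62% rose. Tbx6, which commits cells to the paraxial mesoderm, had 161, 174 and 149 CPM in WT and 59.9, 41.5 and 50.3 CPM in Triple (-1.68 ± 0.21, adjusted p = 1.06e-07). Hes7, the oscillating repressor at the core of the clock, had 56.2, 60.7 and 73.3 CPM and 24.5, 14.7 and 22.5 CPM (-1.58 ± 0.30, adjusted p = 0.000356). Dll3, a Notch ligand that acts within the cell, had 101, 105 and 85.9 CPM and 32.7, 36.6 and 52 CPM (-1.23 ± 0.23, adjusted p = 0.000336). The Triple libraries were below every WT library for all 3 genes, as for all 77 genes called lower. Cited1, a transcriptional co-regulator, went from 691, 686 and 763 CPM to 381, 386 and 354 CPM (-0.93 ± 0.12, adjusted p = 4.32e-07). The 2 list members that rose were Dkk1, given above, and Pcdh8, a protocadherin of forming somite borders, at 12.2, 21.1 and 10.1 CPM in WT and 32.7, 44 and 32.9 CPM in Triple (adjusted p = 0.0283). The call of Pcdh8 ended without Triple green-1, Triple blue-1, Triple blue-2, WT green-1 or WT blue-2 (up to 0.254). Hes1, Rbpj and Notch2 differed by 0.30, 0.17 and 0.09 and did not pass.

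Meox1, a homeobox gene of newly formed somites, rose from 33, 47.5 and 35.4 CPM in WT to 226, 249 and 192 CPM in Triple (2.56 ± 0.21, adjusted p = 6.98e-13). Tcf15, which gives somites their epithelial form, rose from 8.55, 10.5 and 10.1 CPM to 54.4, 31.7 and 50.3 CPM (2.25 ± 0.40, adjusted p = 0.000174). With Aldh1a2 they were the 3 called of 5 tested genes of formed somites, and Foxc1 and Foxc2, forkhead factors of paraxial mesoderm, stood at 0.68 and 1.15 (adjusted p = 0.115 and 0.0554). The list's median was 1.34. Its summed level was 443 to 480 CPM in WT, 485 to 747 CPM in Cdx1-4 and 1013 to 1334 CPM in Triple. Most of that sum was Aldh1a2, at means of 305 CPM in WT, 429 CPM in Cdx1-4 and 781 CPM in Triple. The line along which each tailbud was cut is not recorded, so more somite tissue in the Triple dissections and more somite RNA per cell cannot be told apart.

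Of 10 tested retinoic acid pathway genes 4 rose and 1 fell, 5 of the differences were positive and the median was 0.25. Among all tested genes 1.62% rose and 1.28% fell. Aldh1a2, the retinal dehydrogenase that carries out synthesis in somites, rose from 310.2, 290.1 and 316 CPM to 882, 852 and 609 CPM (1.34 ± 0.20, adjusted p = 0.000939). Stra6, which takes up retinol into cells, rose from 91.6, 79.1 and 126 CPM to 259, 234 and 175 CPM (1.16 ± 0.18, adjusted p = 2.27e-05). Crabp2, which carries retinoic acid to its receptors, rose from 90.4, 92.3 and 126 CPM to 261, 247 and 224 CPM (1.26 ± 0.17, adjusted p = 1.13e-06). These 3 genes act in uptake, synthesis and delivery, and no Triple library overlapped WT in any of them, as for 96 of the 97 genes called higher. Rarg, the retinoic acid receptor of the tailbud, fell from 109.9, 103 and 121 CPM to 43.5, 68.4 and 34.7 CPM (-1.22 ± 0.24, adjusted p = 0.000802). The 5 members that did not pass include Crabp1 at -0.21 and Dhrs3, which converts retinal back to retinol, at -0.39.

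Sox10 (chr15:79154913-79164490, GRCm38), a master regulator of the neural crest, had 4, 0 and 1 counts in WT and 37, 45 and 66 in Triple, or 4.88, 0 and 2.53 CPM against 101, 109.9 and 114 CPM. The difference was 5.03 ± 0.39 (adjusted p = 2.45e-13) and was called under all 14 alternatives, and the Cdx1-4 libraries held 5, 4 and 4 counts. Of 5 tested neural crest genes 2 rose, Sox10 and Id2, and none fell, against 2.90% called over all tested genes. Their median was 0.72, and 4 of the 5 differences were positive. The other neural crest genes did not show a rise of the size of that of Sox10. Sox9, another Sox factor of the crest, was at 1.59 (adjusted p = 0.0732), Crabp1 at -0.21 and Ngfr, the neurotrophin receptor of migrating crest, at 0.20 (adjusted p = 0.807). Tfap2b had at most 1 count in any WT or Triple library, and Ednrb, the endothelin receptor of the crest, had 0, 2 and 0 counts in WT and 3, 2 and 1 in Triple. Id2, an inhibitor of basic helix-loop-helix factors that crest shares with many tissues, was called at 0.72 ± 0.20 (adjusted p = 0.033), but the call ended without Triple green-1, Triple blue-2, WT green-1, WT blue-1 or WT blue-2 (up to 0.351). The list's 24 members in the table summed to 1336 to 1636 CPM in WT and 1426 to 1626 CPM in Triple, which overlap.

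Genes of the neural lineage had no common direction. Of 9 tested neural progenitor genes 1 rose and 1 fell, with a median of -0.08. Sox3, a SoxB1 factor of neural progenitors, rose from 96.5, 68.6 and 101 CPM to 155, 200.2 and 149 CPM (0.89 ± 0.20, adjusted p = 0.00405). Ncam1, the neural cell adhesion molecule, fell from 68.4, 50.1 and 65.7 CPM to 24.5, 31.7 and 29.5 CPM (-1.12 ± 0.27, adjusted p = 0.00901). The call of Sox3 ended without Triple blue-1 (0.0657) and that of Ncam1 without Triple green-1 or WT green-1 (up to 0.125). Nrp1, a semaphorin and Vegf receptor, went from 23.2, 34.3 and 37.9 CPM to 101, 70.8 and 60.7 CPM (adjusted p = 0.00321) and Sema6a, a membrane semaphorin, from 177, 185 and 197 CPM to 109, 61 and 76.3 CPM (adjusted p = 2.32e-05). They were the 2 genes called of 17 tested guidance and ephrin genes, against 2.90% over all tested genes. The call of Nrp1 ended without Triple green-1 or WT green-1 (up to 0.12).

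Col2a1, the fibrillar collagen of notochord and cartilage, had 1, 3 and 2 counts in WT and 17, 28 and 30 in Triple (3.79 ± 0.46, adjusted p = 1.06e-07). Sparc, a matrix protein that binds collagen, rose from 142, 153 and 144 CPM to 237, 273 and 243 CPM (0.78 ± 0.15, adjusted p = 0.000518). With Col26a1, at 1.48 (adjusted p = 0.0302), these were the 3 called of 25 tested collagen, laminin, fibronectin and integrin genes, of which 20 had a positive difference. Over all tested genes 2.90% were called and 2977 of 6003 had a positive difference. Col26a1 did not pass when any 1 of the 6 Triple and WT libraries was left out (up to 0.131). Vim, the mesenchymal intermediate filament, rose from 74.5, 50.1 and 50.5 CPM to 112, 119.6 and 111 CPM (adjusted p = 0.00836), and the epithelial keratins Krt8 and Krt18 also rose, by 0.66 and 0.76 (adjusted p = 0.000898 and 3.77e-05). Vim did not pass without WT blue-1 or WT blue-2 (up to 0.0569). Cdh1, the epithelial cadherin, differed by 0.23 and did not pass.

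Markers of tissues around the tailbud were read in the same libraries. Among lateral plate and allantois genes, Tbx4, which marks the allantois and hindlimb field, had 28, 6 and 6 counts in WT and 0, 0 and 5 in Triple (-2.66 ± 0.64, adjusted p = 0.0079), and did not pass without Triple green-1 or Triple blue-1 (up to 0.0657). Pitx1, a hindlimb and posterior lateral plate factor, went from 79.4, 111 and 60.6 CPM to 13.6, 34.2 and 12.1 CPM (-2.09 ± 0.31, adjusted p = 5.46e-06). Prrx2, a homeobox gene of mesenchyme, rose from 11, 29 and 27.8 CPM to 95.3, 65.9 and 59 CPM (1.84 ± 0.33, adjusted p = 0.000278), and Igf2, Pmp22 and Ahnak rose as well, by 0.51, 0.78 and 0.96. These were the 2 lower and 4 higher of 10 tested members, against 1.28% and 1.62% of all tested genes. Ahnak did not pass without Triple blue-2 (0.128). Hand1 and Foxf1, which define lateral plate, differed by 0.59 and -0.36 without passing. Osr1, a factor of intermediate mesoderm, fell from 81.8, 87 and 93.5 CPM to 40.8, 34.2 and 60.7 CPM, a call that ended without Triple green-1, Triple blue-1, WT green-1, WT blue-1 or WT blue-2 (up to 0.2). The lateral plate and allantois list summed to 2157 to 2351 CPM in WT and 3044 to 3269 CPM in Triple, and its part in the other differences was not tested.

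Of 5 tested notochord and node genes 3 rose, Col2a1, Krt8 and Krt18, and 1 fell, T, all of which other lists hold as well. The list summed to 1038 to 1071 CPM in WT and 1347 to 1529.6 CPM in Triple, and most of those reads were of Krt8 and Krt18. Noto, which defines the node and notochord, had 1, 0 and 3 counts in WT and 1, 0 and 0 in Triple, and Foxa2, a forkhead factor of notochord, floor plate and endoderm, had 19, 6 and 8 and 7, 8 and 10. Both were too low for the filter. Of 2 tested cardiac genes Gata6 rose, and the list summed to 88.4 to 136 CPM in WT and 144 to 212 CPM in Triple. Surface ectoderm genes summed to 182 to 235 CPM and 245 to 269 CPM, and blood and endothelial genes to 193 to 217 CPM and 248 to 283 CPM. The sums of these 4 lists were higher in every Triple library than in any WT library, and their part in the other differences was not tested.

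Most tested endoderm genes had a positive difference in Triple, and calls were made in both directions. Nepn, a gene of the early gut endoderm, fell from 36.6, 50.1 and 58.1 CPM to 8.17, 7.33 and 22.5 CPM (-1.70 ± 0.39, adjusted p = 0.00405), and Gata6, an endoderm and heart factor, rose from 19.5, 21.1 and 15.2 CPM to 49, 48.8 and 43.4 CPM (adjusted p = 0.0167). The call of Nepn ended without Triple blue-1 (0.0527) and that of Gata6 without Triple green-1, Triple blue-1, WT green-1 or WT blue-2 (up to 0.0999). Sox17, which defines endoderm, differed by 0.35 and Foxa1 by 0.22, and neither passed. With Krt8 and Krt18 higher, 3 of 12 tested gut endoderm genes rose and 1 fell. Positive differences were 10 of the 12, with a median of 0.22, against 2977 of 6003 over all tested genes. The list summed to 1757 to 2010 CPM in WT and 2474 to 2566 CPM in Triple. That sum includes Krt8 and Krt18, the same keratins that held most reads of the notochord and node list. Of 14 tested visceral and yolk sac endoderm genes 2 rose, Dab2 at 0.77 and Spink3 at 0.67, and 1 fell, Cited1, given above with the presomitic genes. Of the 14 differences 12 were positive. Ttr, Apoa1 and Afp, which define that tissue, differed by 0.05, 0.30 and 0.53 and did not pass. Spink3 did not pass without WT green-1 (0.0726). That list ran from 2233 to 3402 CPM in WT and from 3116 to 3409 CPM in Triple. The decidua gene Prl8a2 had 1, 0 and 0 counts in WT and 9, 13 and 13 in Triple. It was the 1 tested gene of the trophoblast and decidua list and was called higher, at 4.94. Its WT counts are fewer than are read as a level, and whether its call held under each omission is not given here. The trophoblast and decidua list summed to 12.6 to 39.6 CPM in WT and 60.7 to 83.0 CPM in Triple. Of its defining placental genes, Prl3d1 had 0, 1 and 0 counts in WT and 2, 1 and 2 in Triple, and Prl2b1 0, 0 and 0 and 0, 1 and 0. Beta-s, an adult-type globin gene, rose from 3, 10 and 3 counts to 12, 36 and 49, a call that ended without Triple blue-1, Triple blue-2, WT green-1 or WT blue-2 (up to 0.177), while edgeR and DESeq2 called none of 4 tested blood and endothelial genes, of which 1 had an unadjusted p below 0.05. The part of these tissues in the other differences was not tested.

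**Figure D4:**
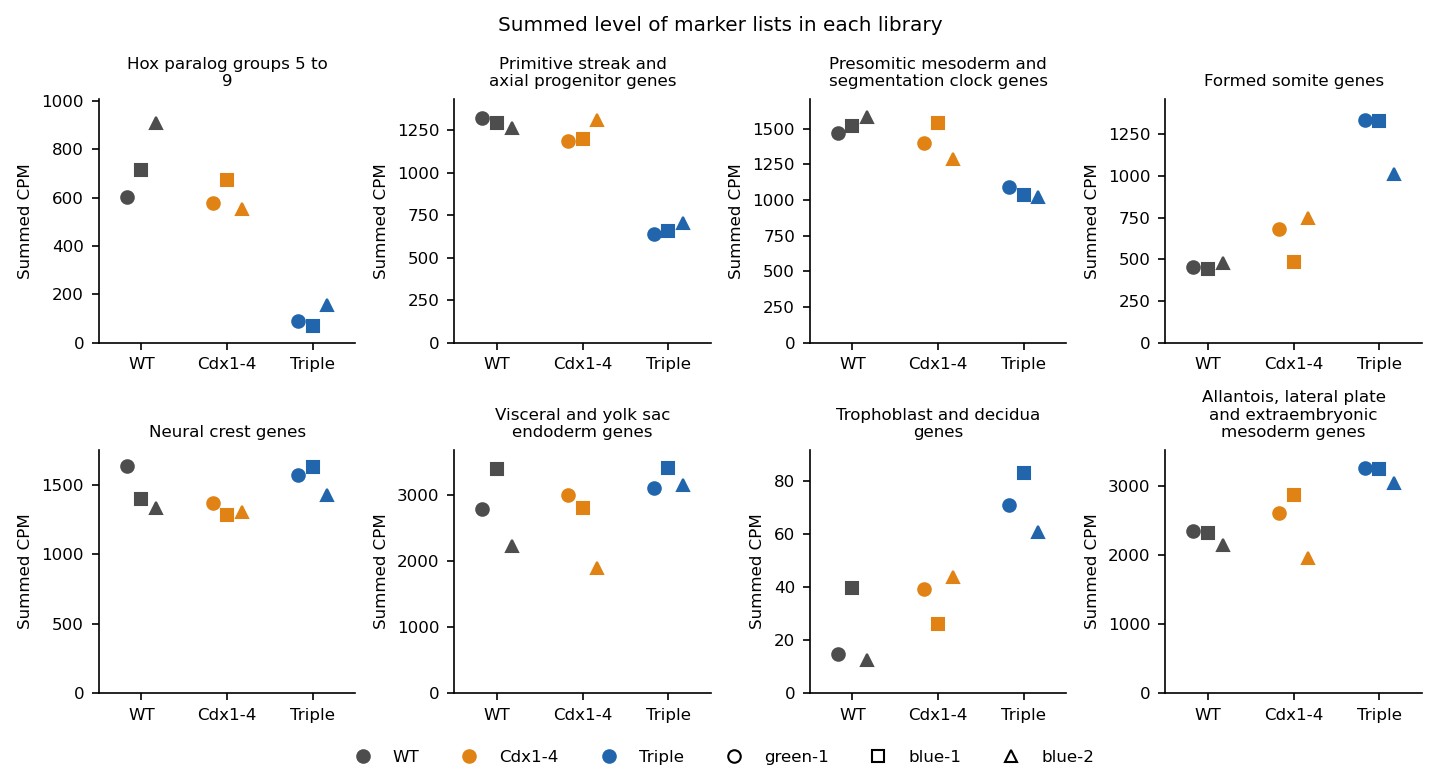
Summed CPM (vertical axes, from 0) of the members of 8 marker lists in each of the 3 WT, 3 Cdx1-4 and 3 Triple libraries. The sums of Hox groups 5 to 9, streak and presomitic lists are lower in every Triple library than in every WT library. Those of formed somite, trophoblast and lateral plate lists are higher, and neural crest and visceral endoderm sums overlap. Most of the formed somite sum is Aldh1a2. Within the presomitic sum, Cited1 alone had a mean of 713 CPM in WT and 374 CPM in Triple.

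Over all tested genes 2.90% were called. The share was 5.71% for cell cycle and replication genes, 13.3% for p53 target and apoptosis genes and 10% for hypoxia and glycolysis genes. Of 35 tested cell cycle and replication genes 1 rose and 1 fell, with a median of -0.03. The gene that rose was Cdkn1a, the p21 inhibitor of the cell cycle and a p53 target, from 58.6, 103 and 80.8 CPM to 139, 193 and 159.5 CPM (1.10 ± 0.21, adjusted p = 0.000349). Rrm2, which makes deoxynucleotides, was lower at -0.38 (adjusted p = 0.0283), and that call ended without Triple green-1, Triple blue-1, Triple blue-2, WT green-1 or WT blue-2 (up to 0.151). Of 15 tested p53 target and apoptosis genes 2 rose, Cdkn1a and Bcl2l1, a survival gene whose call ended without Triple green-1, Triple blue-1, WT green-1, WT blue-1 or WT blue-2 (up to 0.265). The p53 and apoptosis list summed to 869 to 1000.4 CPM in WT and 1027 to 1131 CPM in Triple. Slc2a1, the main glucose transporter, rose from 412, 348 and 429 CPM to 569, 713 and 565 CPM (0.63 ± 0.12, adjusted p = 0.000762), and Aldoc, a glycolytic aldolase, from 100.1, 89.7 and 73.3 CPM to 218, 173 and 159.5 CPM (1.01 ± 0.18, adjusted p = 0.000201). They were 2 of 20 tested hypoxia and glycolysis genes, whose median was -0.08. Among 17 tested imprinted genes 3 rose and none fell, and 8 had an unadjusted edgeR p below 0.05. Those that rose were Igf2, a growth factor, Phlda2, a placental growth restrictor, and Kcnq1ot1, a noncoding RNA. The list's sum was higher in every Triple library, at 15454 to 16135 CPM, than in any WT library, at 11795 to 12853 CPM. Phlda2 went from 801, 809.7 and 712 CPM to 1266, 1121 and 1282 CPM (0.66 ± 0.11, adjusted p = 3.53e-05). The call of Kcnq1ot1 ended without Triple green-1, Triple blue-2, WT blue-1 or WT blue-2 (up to 0.16). Sall4 and Lin28a, progenitor and pluripotency genes, were called lower at -0.43 and -0.38, as 2 of 8 tested epiblast genes. Without Triple green-1 or WT green-1 Sall4 did not pass (up to 0.136), nor did Lin28a without Triple blue-2, WT green-1 or WT blue-1 (up to 0.311). Of 79 tested cytosolic ribosomal protein genes only Rps3a1 was called, at 0.37, a share of 1.27% that lies below that of all genes, and it did not pass without Triple green-1, Triple blue-2, WT blue-1 or WT blue-2 (up to 0.164). EdgeR and DESeq2 called none of 9 tested immediate early and heat shock genes and none of 4 Nodal pathway genes, of which 2 and 1 had an unadjusted edgeR p below 0.05.

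**Figure D5:**
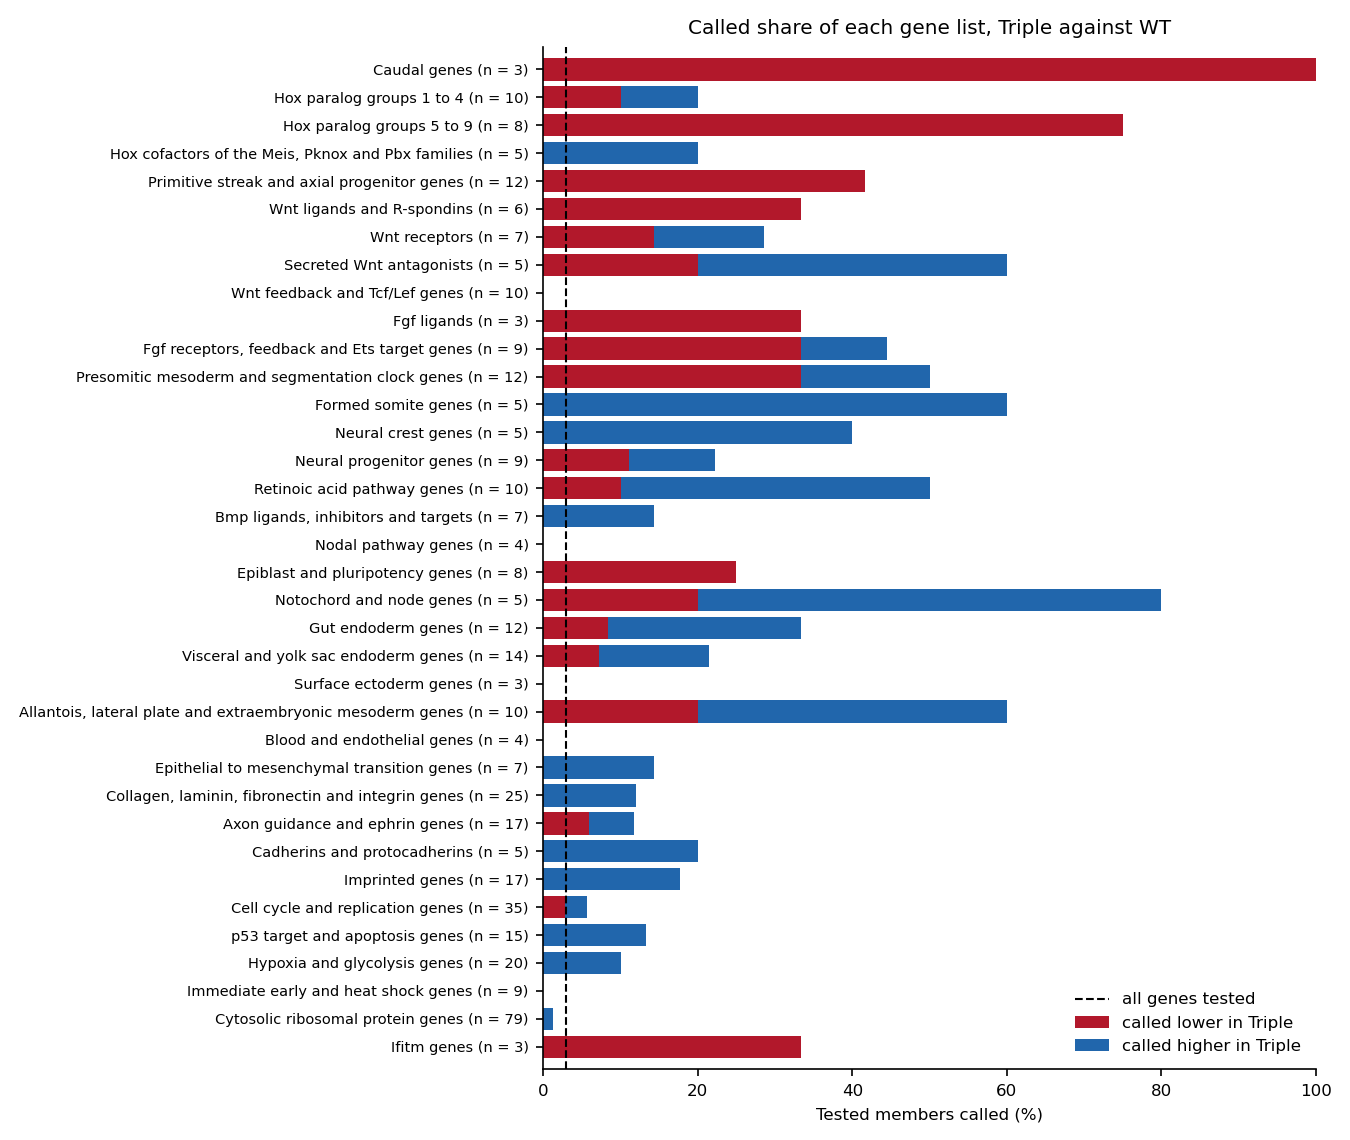
Share of the tested members of each gene list (at least 3 tested; n in brackets) that were called lower (red) or higher (blue) in Triple than in WT, in percent, with the 2.90% of all tested genes as a dashed line. Caudal genes and Hox groups 5 to 9 were called lower in most members, and ribosomal protein genes lie under the line.

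Several of the largest differences lay outside the lists. Soga3, which has no settled role in the tailbud, rose from 12.2, 13.2 and 17.7 CPM to 92.5, 90.3 and 78 CPM (2.62 ± 0.30, adjusted p = 1.70e-08). Cntfr, the receptor for ciliary neurotrophic factor, rose from 22, 15.8 and 7.58 CPM to 92.5, 68.4 and 71.1 CPM (2.18 ± 0.31, adjusted p = 1.84e-06). Both were also higher in each Triple library than in any Cdx1-4 library. The largest rises and falls were chosen among genes whose Triple and WT libraries do not overlap, so that separation is no result. Flrt3, a membrane protein of cell adhesion and Fgf signalling, rose by 1.55 (adjusted p = 2.04e-06) and Cdc42ep1, an effector of the small GTPase Cdc42, by 1.66 (adjusted p = 2.31e-05). Thy1, a surface glycoprotein, had 19, 10 and 8 counts in WT and 0, 2 and 1 in Triple (-3.26 ± 0.65, adjusted p = 0.000762). Gfra3, a receptor for artemin, had 25, 3 and 11 and 0, 2 and 1 counts (-3.31 ± 0.73, adjusted p = 0.00321). Naaa, a lysosomal hydrolase, went from 34.2, 63.3 and 30.3 CPM to 5.44, 7.33 and 8.67 CPM (-2.43 ± 0.44, adjusted p = 0.000201). These 3 genes were low in every Triple library. Ifitm1, an interferon-inducible gene abundant in the posterior embryo, fell from 1835, 1646 and 1915 CPM to 1350.0, 1111 and 999 CPM (-0.65 ± 0.12, adjusted p = 0.000194), as 1 of 3 tested Ifitm genes. Nr6a1, a nuclear receptor of the growing trunk, fell from 833, 567 and 801 CPM to 465, 427 and 493 CPM (-0.68 ± 0.14, adjusted p = 0.00328). Flrt3 and Nr6a1 were picked after their values were seen.

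The Cdx1-4 tailbuds give the levels of the same genes where Cdx1 and Cdx4 were low and Cdx2 was not. Cdx1 was at 59.6, 44.2 and 81.1 CPM and Cdx4 had 0, 1 and 0 counts there, while Cdx2 stood at 176, 173 and 268 CPM. EdgeR called 8 genes between Cdx1-4 and WT, 0.133% of those tested, and 121 between Triple and Cdx1-4, or 2.02%. The direct comparison of Triple with Cdx1-4 gave -2.99 ± 0.28 for Hoxb8 (adjusted p = 1.52e-10), -1.57 ± 0.20 for Tbx6 (adjusted p = 5.46e-07) and 1.73 ± 0.18 for Meox1 (adjusted p = 1.20e-09). For Fgfr2 it gave 1.52 ± 0.26 (adjusted p = 0.000164). Fgf8 and Pitx1 differed between Triple and Cdx1-4 by -0.83 and -1.45, with adjusted p of 0.101 and 0.00496, so that the call was made for Pitx1 and not for Fgf8. Kcnq1ot1 stood at 77.3, 62.2 and 58.2 CPM in Cdx1-4, 76.2, 48.8 and 74.6 CPM in Triple and 39.1, 31.6 and 25.3 CPM in WT. The Cdx1-4 and Triple comparisons against WT use the same 3 WT libraries, and that of Triple with Cdx1-4 uses the same Triple libraries, so the values stand side by side and are not separate evidence.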

How the data were processed

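The table of 9 embryo CEL-seq libraries was used as the authors deposited it, as counts per gene, not normalised. Reads were mapped to mm10 per the submitters' processing notes, and the aligner, the counting program, the use of strand and any molecular identifiers are not given in the sources used here. The 8 spike-in entries (1 count) were left out, and 14546 of 14602 genes (99.6%) were found by symbol in the GRCm38 table of RefSeq, which also gave the promoter sequences. Columns were matched to WT, Cdx1-4 or Triple by name, and 1 Cdx1-4 column is spelled differently from the other two.

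All 9 libraries entered 1 fit of edgeR 4.0.16 (R 4.3.3), with filterByExpr, TMM scaling, 1 mean per group and the robust quasi-likelihood test. Adjusted p-values are Benjamini-Hochberg over 6003 genes, and standard errors of log2 differences come from the F statistic. The common biological coefficient of variation was 0.0995 and the residual degrees of freedom were 6. Pooled count ratios carry exact 95% intervals, and a group with 0 counts a floor of 3 counts. A filter that uses all libraries passes genes that are high in 1 group only, so shares of tested members are not shares of all members.

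The genes named are Cdx1, Cdx2, Cdx4 and T, Sox10, Meox1, Hoxb9 and Tbx6, the 15 largest rises and 15 largest falls with no overlap of libraries and a mean of 20 CPM or more in either group, called list members, Hox genes, and uncalled members for contrast. Not all of them are printed, and the values of some genes, called ones among them, are not reported here. The comparison, the 42 gene lists and this rule were chosen with earlier results of these data known. Alternatives were DESeq2 1.42.0, RLE scaling, no filter, only 6 libraries, a block or covariate from the column names, blue libraries only, thinning to 389601 counts and leaving out each Triple and WT library in turn. Python 3.11.15 was used for lists and figures.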

Additional observations from a re-analysis of the deposited data

How the results depend on the processing

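All 174 calls kept their direction under each alternative that gave them a value, and 54 of them stayed called in every one. The total was 211 without the filter, 174 with RLE scaling, 164 with only the Triple and WT libraries and 181 with colour as a covariate. It was 74 among the blue libraries (40 higher, 34 lower) and 105 with DESeq2 (54 higher, 51 lower), of which 66 and 104 were among the 174. Vim, Gata6, Osr1 and Id2 were among the genes that DESeq2 did not call. In the presomitic list and in the lateral plate and allantois list DESeq2 called 4 genes each, where edgeR called 6. Thinning every library to the smallest total gave 122, 62 of them higher. Leaving out 1 of the Triple and WT libraries gave 125 to 154 genes, 65 to 83 higher and 53 to 71 lower, the lowest total being that without WT green-1. With the column tag as a replicate block 163 genes were called, 90 higher and 73 lower, 158 of them among the 174. Same-tag libraries of different groups did not deviate together, with correlations of -0.09 to 0.05, so the tags were not taken to pair the samples. Adding TTTACTG to the motif raised the share of tested genes with a match to 7.29%. Of the members of Hox groups 5 to 9 and of the streak list, 3 each were called lower among the blue libraries. In groups 1 to 4 no member was called lower without Triple green-1, and 3 were with the block, with the colour covariate or without the filter. The cause of these changes was not tested. At 389601 to 854852 counts a library, genes near 3 counts could not be tested.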

Other observations

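Genes of sterol synthesis and uptake were gathered after called genes of this kind had been seen, so the set carries no test. Of 27 genes, 26 were in the table and 18 were tested, 4 were called higher in Triple and none lower, 15 of the 18 differences were positive and the median was 0.34. Among all tested genes 1.62% were called higher, and 2977 of 6003 differences were positive. Sc4mol, a sterol methyl oxidase, had 50.1, 47.5 and 55.6 CPM in WT and 114, 109.9 and 113 CPM in Triple (1.14 ± 0.21, adjusted p = 0.000225). Acat2, which makes acetoacetyl-CoA, had 233, 277 and 253 CPM and 362, 374 and 349 CPM (0.52 ± 0.13, adjusted p = 0.0167), and Aacs, which activates acetoacetate, had 5, 3 and 1 counts in WT and 8, 9 and 18 in Triple (adjusted p = 0.00703). Hmgcs1, an early step of the pathway, stood at 0.60 with an adjusted p of 0.0807.

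Among single-library values, Ddx3y, on the Y chromosome, had 27.2, 22 and 81.5 CPM in the Triple libraries and 33, 47.5 and 32.8 CPM in WT. Every library held reads of it.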
